A study of Sus scrofa with 24 samples.

Results

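Complement is a cascade of plasma and tissue proteins in which proteases cut the next component in turn, and its routes meet at the cleavage of C3. The classical route starts with the C1 proteases C1r and C1s, which cut C4 and C2, and the alternative route uses factor B, so that C2 and factor B supply the protease of the 2 convertases that cut C3. The liver makes most plasma complement, but fibroblasts, chondrocytes and other joint cells also transcribe these genes, and inhibitors such as C1 inhibitor and factor I limit the cascade at its start and at C3.

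The genes described here are 9 listed complement components and regulators: C3, CFB (factor B), C1R, C1S, C2, C5, CFI (factor I), CD55 (a membrane inhibitor of the convertases) and SERPING1 (C1 inhibitor). They were chosen by name and kept where at least 1 library held 10 or more reads. Of the 9, 7 were found by their name in the count table. CFB was found by its identifier, ENSSSCG00000024914, on a row that carries no name. CD55 was matched to no row and was not analysed here. The 8 genes were among 13653 genes tested, of 25880 in the table.

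RNA was sequenced from 24 wells of cultured pig meniscus cells, 3 wells in each of 8 groups. Cells came from the inner or the outer zone of medial menisci of skeletally mature females, were pooled from at least 3 menisci, expanded for 1 passage and plated at 250000 per well on collagen-coated flexible membranes. About 40 h later the medium was changed, with IL-1α at 0.1 ng/mL or without it, and the wells were stretched cyclically by 5% at 0.5 Hz or were left unstretched, and RNA was taken directly after the single bout, which the study's methods give as 4 h. The groups of each zone are thus untreated (unstretched without IL-1), stretched, IL-1 and stretched IL-1. The wells of a group share a pool of cells, and the p-values here reflect no more than the variation among wells. Each of the 4 treatments had a culture plate of its own (plates 61, 62, 63 and 64 in the labels) which held both zones, and plate and treatment cannot be told apart. On every plate the inner cells were in wells 1 to 3 and the outer cells in wells 4 to 6. Zone thus cannot be told apart from well position or from the pool of cells. In these bulk libraries, fewer cells that transcribe a gene and less RNA per cell cannot be told apart either.

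Libraries held 25377054 to 35284474 counted reads. Levels are in CPM (each gene's reads as a rate over the library's total) scaled by TMM factors, which ran from 0.881 to 1.12. Levels of different genes are compared per kb of exon, by the union of a gene's RefSeq exons. The reads were counted with other gene models (Ensembl), so order, shares and ratios between genes depend on both annotations. The 10 fibroblast-like markers summed to between 82090 and 107200 CPM in every library, and COL1A1, COL1A2 and COL3A1 reached the most reads of them. In untreated inner against outer cells 4 of the 10 were called lower and 0 higher, against 3319 and 2831 of all 13653 genes. The 10 chondrocyte-like markers summed to 2837 to 2984 CPM in untreated inner cells and to 1473 to 1598 CPM in untreated outer cells, and to 2246 to 2480 CPM and 1273 to 1353 CPM with IL-1. COL11A1 reached the most reads of them, 72402 in a library, and ACAN came next with 16729. Of the 8 chondrocyte-like markers tested, 4 were called higher and 1 lower in untreated inner than in untreated outer cells. The 7 mural and smooth muscle markers, nearly all of whose sum is ACTA2, summed to 1633 to 1833 CPM in untreated inner cells, 1427 to 1490 CPM in inner cells with IL-1, 1023 to 1056 CPM in untreated outer cells and 696.3 to 781.9 CPM in outer cells with IL-1. Of the 6 tested, 1 was called higher and 4 lower with IL-1 in unstretched inner cells, and 2 higher and 2 lower in unstretched outer cells. Over all genes, 32.6% rose and 32.8% fell in the inner zone and 31.1% rose and 33.5% fell in the outer zone. MYH11 rose with IL-1 from 2.07 to 13.2 CPM in the inner zone (log2 2.65 ± 0.12, adjusted p = 3.32e-20) and from 3.77 to 29.2 CPM in the outer zone (2.96 ± 0.10, adjusted p = 6.36e-24). Stretch lowered MYH11 in IL-1 cells of both zones (-0.71 ± 0.10 and -0.70 ± 0.08, adjusted p = 2.84e-07 and 1.61e-08). The part of these markers in the results was not tested. Of the 9 leukocyte and macrophage markers, 5 stayed under 10 reads in every library, CD163 was at 0 and PTPRC had at most 1 read, and their summed level was between 1.93 and 4.57 CPM. The 5 endothelial markers (4 of them under 10 reads throughout) summed to 4.89 to 9.60 CPM, from 7.62 to 9.52 CPM in untreated inner cells to 5.02 to 5.46 CPM in inner cells with IL-1, and the 4 adipocyte markers to at most 0.314 CPM.

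Gene positions are those of the RefSeq annotation on the Sscrofa11.1 assembly. Any link of position or upstream sequence with the size of a response was not tested. C3 lies on chromosome 2 (72431470 to 72471622, plus strand), and SERPING1 lies on the same chromosome at 13324160 to 13338826 on the minus strand. C2 (24020590 to 24034042) and CFB (24034077 to 24040523) follow each other on the plus strand of chromosome 7, with 34 bases between them, and 216 of the 250 bases upstream of CFB lie in the last annotated exon of C2 (24033587 to 24034042). C1R (63644097 to 63655149, plus strand) and C1S (63670309 to 63681466, minus strand) point towards each other on chromosome 5 with 15159 bases between their ends. C5 lies on chromosome 1 (260995662 to 261088868, minus strand) and CFI on chromosome 8 (112430824 to 112470844, plus strand). The reads were counted with Ensembl gene models, which were not used here, so whether the models of C2 and CFB overlap was not checked.

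The C3 window is shown because C3 had the largest fold of the 8 genes with IL-1 in unstretched cells, and the C2 window because C2 neighbours CFB and moved less. Each is the 250 bases before the annotated start, 5′ to 3′, with capitals marking matches to TTNNGNAA, the core of sites of the C/EBP family of transcription factors. C3 has 2 matches, at bases -102 to -95 and -89 to -82 from the start, and C2 has 2, at -118 to -111 on the other strand and -31 to -24.
C3, chr2:72431220-72431469, plus strand: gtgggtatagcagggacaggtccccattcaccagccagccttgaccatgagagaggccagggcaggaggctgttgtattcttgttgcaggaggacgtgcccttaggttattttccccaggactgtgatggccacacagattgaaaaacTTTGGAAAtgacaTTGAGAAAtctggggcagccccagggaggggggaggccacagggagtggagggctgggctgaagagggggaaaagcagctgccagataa
C2, chr7:24020340-24020589, plus strand: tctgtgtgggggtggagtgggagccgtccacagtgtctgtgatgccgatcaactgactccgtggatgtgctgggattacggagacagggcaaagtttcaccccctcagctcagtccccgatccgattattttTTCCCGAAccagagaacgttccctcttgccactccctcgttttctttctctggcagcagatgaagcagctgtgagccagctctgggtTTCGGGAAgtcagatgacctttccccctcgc

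CFB, the other strongly responding gene, had 2 matches to the NF-κB consensus in its 250 bases, and these are shown as 30-base sites with the match in capitals. The nearer one reads as GGGAAATTCC on the other strand.
CFB, -155 to -146, chr7:24033912-24033941, plus strand: cctggggctgGGGAACCTCCagcgcgccca
CFB, -79 to -70, chr7:24033988-24034017, plus strand: actttcacgtGGAATTTCCCagttatgaaa

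Windows of the same length were searched on both strands at 19505 RefSeq genes, with the motif letters chosen while these windows were in view. Of these windows, 14% held the NF-κB consensus and 31.7% the C/EBP letters. The C/EBP letters were in the windows of 6 of the 8 genes (C3, CFB, C1S, C2, SERPING1 and C5, all but C1R and CFI), among them C5, which IL-1 did not raise. Among the 8 genes, only CFB had an NF-κB match in its window. The letters TTCNNNGAA (a GAS element, bound by STAT factors) were in 6.1% of all windows and in that of SERPING1, at -238 to -230. The letters GAAANNGAA (from the IRF family's sites) were in 6.69% of all windows and in those of C1S, at -152 to -144, and CFI, at -237 to -229. The AP-1 letters TGANTCA were in 5.23% of all windows and in none of the 8, and the C1R window held none of the motifs searched. A match is a string of letters, and no binding was measured.

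IL-1 raised 6 of the 8 complement genes in unstretched inner zone cells, against 32.6% of all tested genes called higher (adjusted p under 0.05). C3 and CFB went from 2 to 8 reads per library to 569 to 720, C2 rose 3.55-fold, and SERPING1, C1S and C1R rose by 1.77-fold to 1.90-fold. C3, CFB and C2 rose over 2-fold, which 8.42% of all genes did. The median log2 fold change was 0.90 over the 8 genes and -0.03 over all genes tested.

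**Figure D1:**
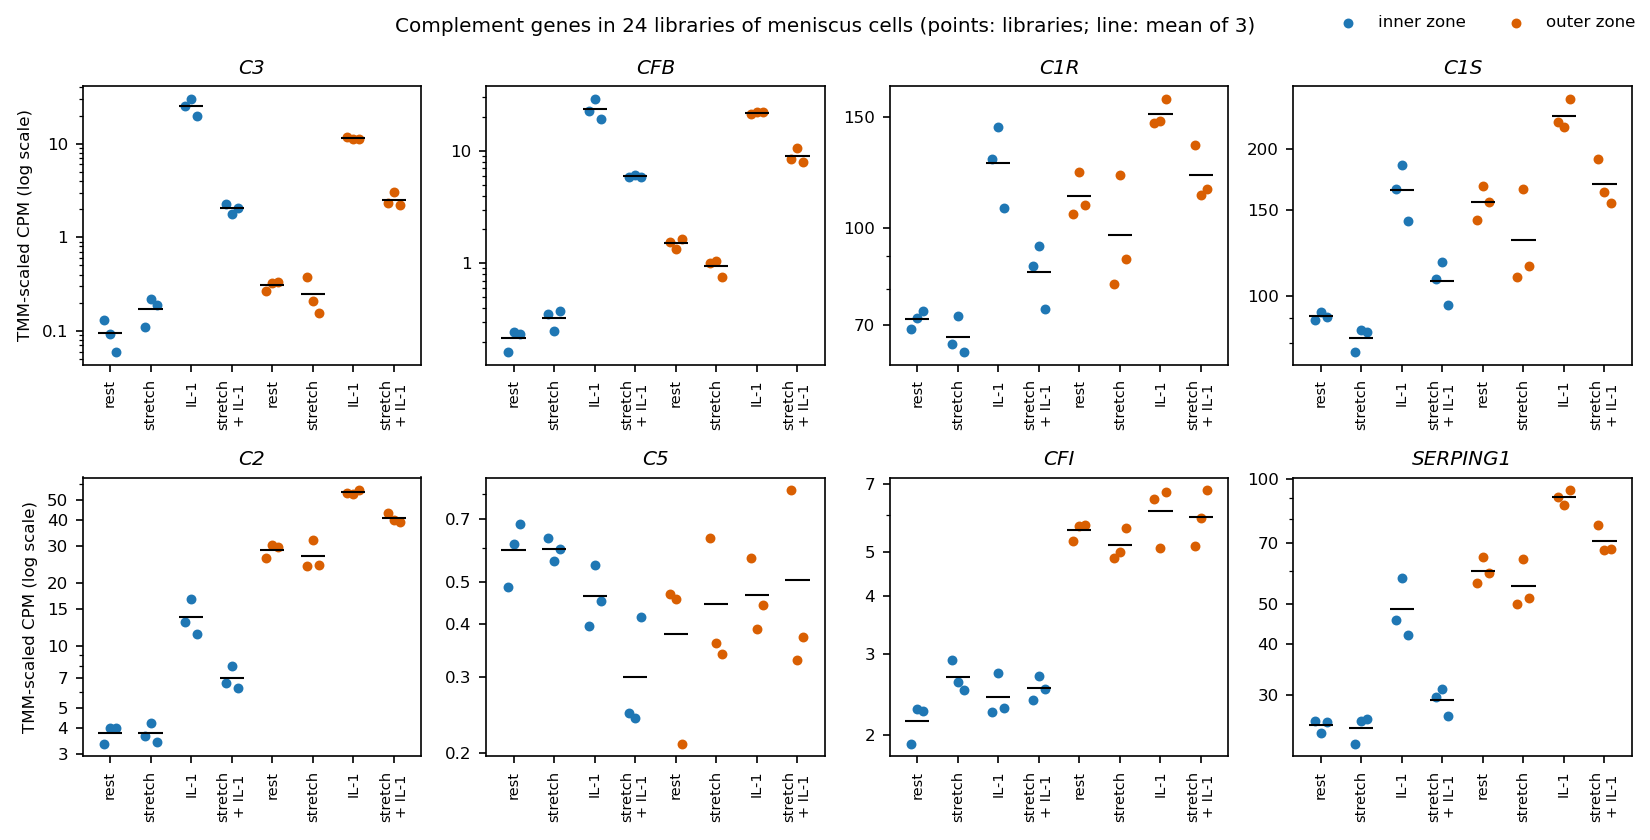
Level of each of the 8 complement genes in all 24 libraries, in TMM-scaled CPM on a log axis, by group (rest is untreated, points are libraries, lines are means of 3, inner zone in blue and outer zone in orange). C3 rises from 0.0593 to 0.130 CPM at rest to 19.6 to 30.3 CPM with IL-1 in the inner zone and lies between 1.76 and 2.26 CPM where stretch was added.

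C3, the component on which all routes converge, had 0.130, 0.0922 and 0.0593 CPM in the 3 untreated inner libraries, from 4, 3 and 2 reads. With IL-1 it had 25.5, 30.3 and 19.6 CPM, from 648, 720 and 609 reads. The groups lay far apart, and the fitted log2 fold change was 8.01 ± 0.23 (SE, adjusted p = 3.05e-25). The ratio of summed reads, scaled by library, was 266, with a 95% exact interval of 139.7 to 582.1 that covers counting error only, so the size of this fold rests on 9 reads in the untreated group.

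CFB, the protease subunit of the alternative convertase, had 0.162, 0.246 and 0.237 CPM in untreated inner libraries and 22.4, 29.1 and 19.2 CPM with IL-1. Its log2 fold change was 6.73 ± 0.20 (adjusted p = 3.95e-24), and the ratio of summed reads was 107 (95% exact interval 69.8 to 173), from 21 untreated reads.

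C2, the protease subunit of the classical convertase, had 3.38, 4.02 and 4.01 CPM in untreated inner libraries and 13.0, 16.7 and 11.4 CPM with IL-1, a log2 fold change of 1.83 ± 0.15 (adjusted p = 4.64e-10). C1R, which activates C1S within the C1 complex, went from 69.1, 71.8 and 73.6 CPM to 128, 145 and 107 CPM (0.82 ± 0.14, adjusted p = 4.20e-05). C1S went from 89.2, 92.4 and 90.1 CPM to 166, 186 and 142 CPM (0.86 ± 0.14, adjusted p = 3.07e-05). SERPING1, which inactivates C1r and C1s, went from 26.0, 24.2 and 25.8 CPM to 45.6, 57.8 and 42.0 CPM (0.93 ± 0.12, adjusted p = 8.08e-07). In none of these 4 genes did the IL-1 libraries overlap the untreated ones. Here and below, the share of all genes whose libraries separate in this way was not counted. Within the inner IL-1 group the same library, replicate 2, was the highest for all 6 raised genes and replicate 3 the lowest.

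C5, the precursor of the C5a peptide and of the membrane attack complex, and CFI, the protease that inactivates C3b and C4b, did not pass the test. C5 lay between 0.487 and 0.682 CPM untreated and between 0.394 and 0.546 CPM with IL-1, with a log2 difference of -0.37 ± 0.34. CFI lay between 1.92 and 2.27 CPM untreated and between 2.25 and 2.73 CPM with IL-1, a difference of 0.16 ± 0.16.

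In unstretched outer zone cells the same 6 genes rose with IL-1, against 31.1% of all genes. C3 and CFB rose over 2-fold, as 8.20% of all genes did, and the median was 0.59 over the 8 genes. C3 went from 0.268, 0.326 and 0.330 CPM to 11.93, 11.14 and 11.13 CPM, a log2 fold change of 5.19 ± 0.21 (adjusted p = 8.56e-21). The ratio of summed reads was 36.9 (95% exact interval 25.5 to 55.4, from 29 untreated reads). CFB went from 1.54, 1.33 and 1.65 CPM to 21.3, 22.1 and 22.4 CPM, a log2 fold change of 3.86 ± 0.14 (adjusted p = 2.07e-21). Both genes thus had libraries far apart with no overlap, from a higher untreated level than in the inner zone.

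C2 went from 26.4, 30.6 and 29.8 CPM in untreated outer libraries to 54.4, 53.8 and 55.9 CPM with IL-1 (0.92 ± 0.10, adjusted p = 5.23e-08). C1R went from 105, 123 and 109 CPM to 147, 147 and 160 CPM (0.43 ± 0.13, adjusted p = 0.00856), a call that was lost with upper-quartile scaling (0.25, adjusted p = 0.093). C1S went from 143, 168 and 156 CPM to 227, 223 and 255 CPM (0.59 ± 0.14, adjusted p = 0.000918). SERPING1 went from 56.1, 65.0 and 59.4 CPM to 90.6, 86.5 and 94.2 CPM (0.59 ± 0.10, adjusted p = 6.31e-05). The IL-1 libraries lay above the untreated ones in each of these 4 genes. C5 (0.32 ± 0.38) and CFI (0.14 ± 0.11) again did not pass the test.

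Few of the 8 genes were called with stretch alone. Of the 8, edgeR's test called 0 in stretched against untreated inner cells, where 10.6% of all genes were called higher and 9.29% lower. DESeq2 also called 0, and 1 gene, CFI, had an unadjusted p under 0.05 (log2 difference 0.32 ± 0.15). C3 had 0.110, 0.218 and 0.188 CPM in stretched inner cells (0.84 ± 0.67 against untreated, adjusted p = 0.442), from 4 to 7 reads per library. CFB had 0.357, 0.249 and 0.376 CPM (0.59 ± 0.48, adjusted p = 0.448). With so few reads, smaller changes of C3 or CFB were not detectable at this depth.

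In the outer zone stretch alone lowered CFB, to 1.01, 1.05 and 0.757 CPM, below the 3 untreated libraries (-0.70 ± 0.24, adjusted p = 0.0357), as 10.3% of all genes were called lower. The call was lost when any of 4 single libraries was left out (outer stretched replicates 4 and 6, outer unstretched replicates 4 and 6), with adjusted p from 0.0587 to 0.167. Outer stretched replicate 5 was the highest of its group for C1R, C1S, C2, CFB and SERPING1, for instance 121 CPM for C1R against 81.4 and 89.2 CPM in the other two libraries. Without that library C1R (-0.39, adjusted p = 0.0305) and C1S (-0.47, adjusted p = 0.00702) were also called lower. The share of all genes called in that fit was not counted. With that library included, the differences of C1R and C1S were -0.20 ± 0.13 and -0.26 ± 0.14, and neither was called.

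Stretch in the presence of IL-1 lowered the same 6 genes that IL-1 had raised in the inner zone, against 18.1% of all genes called lower. C3 and CFB fell over 2-fold, as 2.26% of all genes did. The 2 contrasts share the IL-1 libraries. The median log2 difference was -0.68 over the 8 genes and 0.01 over all genes. C3 had 2.26, 1.76 and 2.07 CPM in stretched IL-1 cells, below every IL-1 library and above every untreated one, and the log2 difference from IL-1 alone was -3.62 ± 0.14 (12.3-fold lower, adjusted p = 1.70e-19). CFB had 5.85, 6.13 and 5.82 CPM, with a difference of -1.98 ± 0.12 (3.95-fold lower, adjusted p = 6.99e-15).

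C2 had 6.63, 7.97 and 6.23 CPM in stretched IL-1 inner cells, 1.97-fold below IL-1 alone (-0.98 ± 0.14, adjusted p = 9.76e-06). SERPING1 had 29.8, 31.1 and 26.7 CPM, close above its untreated libraries (-0.73 ± 0.12 against IL-1, adjusted p = 5.01e-05). C1S had 108, 117 and 95.4 CPM (-0.62 ± 0.14, adjusted p = 0.00181) and C1R had 87.0, 93.6 and 74.2 CPM (-0.58 ± 0.14, adjusted p = 0.00288). All 4 genes lay below every IL-1 library of the zone. C5 had 0.247, 0.240 and 0.414 CPM, from 6, 6 and 14 reads, a difference of -0.56 ± 0.41 that did not pass. CFI lay between 2.39 and 2.69 CPM (0.07 ± 0.16).

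**Figure D2:**
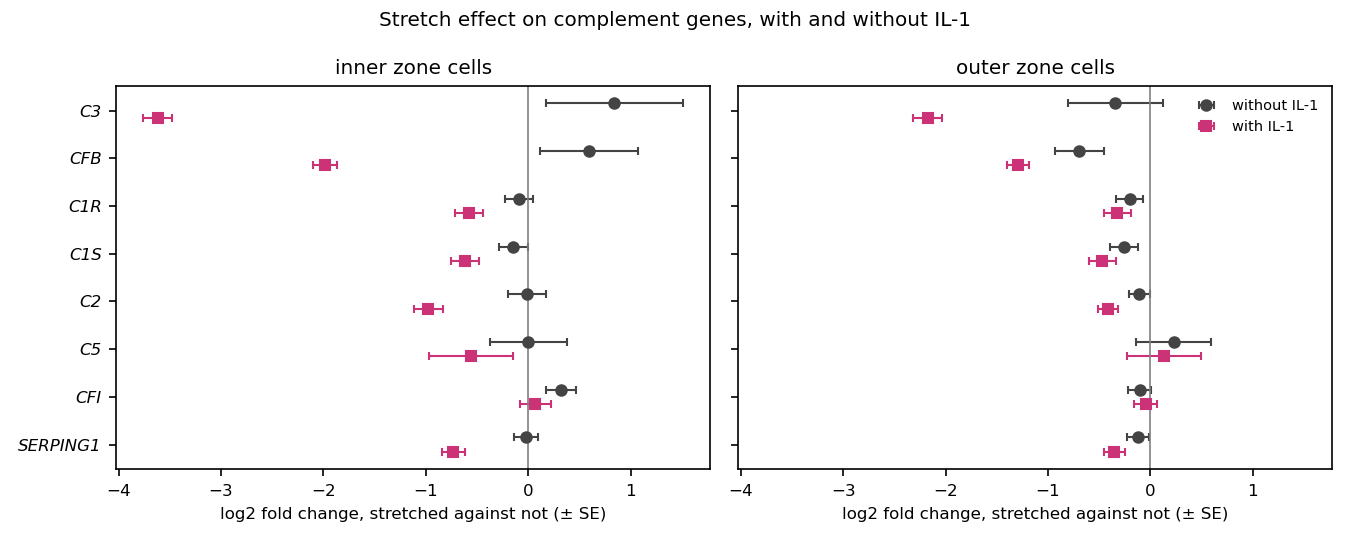
Log2 fold change of each complement gene with stretch, without IL-1 (grey circles) and with IL-1 (pink squares), in inner (left) and outer (right) zone cells, with bars of 1 SE from the edgeR fit. C3 lies at -3.62 and -2.18 with IL-1, while without IL-1 its values are 0.84 and -0.34 with wide bars.

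In outer zone cells with IL-1, stretch lowered 5 of the 8 genes, against 15.1% of all genes. C3 and CFB fell over 2-fold, as 1.77% of all genes did. C3 had 2.32, 3.03 and 2.23 CPM (-2.18 ± 0.15, 4.52-fold lower, adjusted p = 1.90e-13) and CFB had 8.43, 10.6 and 7.88 CPM (-1.29 ± 0.11, 2.45-fold lower, adjusted p = 6.06e-11). C2 had 43.6, 40.1 and 39.2 CPM (-0.42 ± 0.10, adjusted p = 0.00287). These 3 genes lay below every outer IL-1 library and above every untreated one.

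C1S had 191, 163 and 155 CPM in stretched IL-1 outer cells (-0.47 ± 0.14, adjusted p = 0.0143), and SERPING1 had 77.5, 67.6 and 67.7 CPM (-0.35 ± 0.10, adjusted p = 0.0155). Both calls were lost without outer stretched IL-1 replicate 5 or 6 or outer unstretched IL-1 replicate 6, with adjusted p from 0.0528 to 0.0685, leaving 3 genes called. With each zone fitted alone, the C1S call was lost too (-0.48, adjusted p = 0.0586). C1R had 135, 113 and 115 CPM (-0.32 ± 0.13), and its adjusted p of 0.0832 missed the threshold. It passed without outer stretched replicate 5, a library outside this comparison (-0.32 still, adjusted p = 0.0292). It also passed without outer stretched IL-1 replicate 4 (-0.41, adjusted p = 0.0498). C5 (0.13 ± 0.36) and CFI (-0.04 ± 0.11) did not pass.

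The test of whether the stretch effect differed with and without IL-1 called 4 of the 8 genes in the inner zone, where 19.7% of all genes were called in either direction. These were C3 (-4.46 ± 0.73, adjusted p = 1.95e-05), CFB (-2.58 ± 0.50, adjusted p = 0.000239), C2 (-0.96 ± 0.23, adjusted p = 0.00479) and SERPING1 (-0.71 ± 0.17, adjusted p = 0.00438). For C1R (-0.49 ± 0.19, adjusted p = 0.0958) and C1S (-0.47 ± 0.20, adjusted p = 0.109) the difference was not called, although stretch lowered both by the test in cells with IL-1 and not in cells without it. Without outer stretched replicate 5, both were called (adjusted p = 0.0345 and 0.0284). That library is outside this comparison, and the differences stayed at -0.49 and -0.47 without it. C1R was also called without inner unstretched IL-1 replicate 3 (-0.59, adjusted p = 0.0401). With each zone fitted alone, C1S was called (-0.49, adjusted p = 0.0347). In the outer zone 1 of the 8, C3, was called (-1.83 ± 0.52, adjusted p = 0.0134), against 13.2% of all genes. That call was lost without outer stretched replicate 4, which had the highest C3 level of its group (-1.43, adjusted p = 0.16).

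Stretched cells thus kept part of the IL-1 response. In stretched inner cells IL-1 raised 5 of the 8 genes, against 27.2% of all genes, and C3 and CFB over 2-fold, against 6.04%. C3 rose by 3.55 ± 0.33 on the log2 scale (adjusted p = 4.98e-11) and CFB by 4.16 ± 0.23 (adjusted p = 1.94e-16). C2 rose by 0.87 ± 0.17 (adjusted p = 0.00016), C1S by 0.39 ± 0.14 (adjusted p = 0.0281) and C1R by 0.34 ± 0.14 (adjusted p = 0.0494). SERPING1 did not pass (0.22 ± 0.12, adjusted p = 0.136).

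C5 was called lower with IL-1 in stretched inner cells, as 26.3% of all genes were. It had 23, 18 and 19 reads without IL-1 and 6, 6 and 14 reads with it, so the groups did not overlap (-0.93 ± 0.37, adjusted p = 0.0334), but DESeq2 gave an adjusted p of 0.0511. C1R was the least stable of these calls: it was lost in 17 of the 24 fits that left out 1 library, with RLE factors (adjusted p = 0.0541) and with no filter on low counts (adjusted p = 0.0865). The calls for C5, C1S and C1R were all lost without inner stretched replicate 1 or inner stretched IL-1 replicate 1 or 2, which leaves C3, CFB and C2. With upper-quartile scaling C1R (adjusted p = 0.217) and C1S (adjusted p = 0.131) were not called either.

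In stretched outer cells IL-1 also raised 5 of the 8 genes, against 28.5% of all genes, and C3 and CFB over 2-fold, against 6.42%. C3 rose by 3.35 ± 0.29 on the log2 scale (adjusted p = 5.39e-12), CFB by 3.26 ± 0.17 (adjusted p = 3.90e-17) and C2 by 0.61 ± 0.10 (adjusted p = 2.69e-05). SERPING1 rose by 0.36 ± 0.11 (adjusted p = 0.00635) and C1S by 0.39 ± 0.14 (adjusted p = 0.0211). C1R missed the threshold at 0.32 ± 0.13 (adjusted p = 0.0531), and was called by DESeq2 (adjusted p = 0.0305) and without outer stretched replicate 5 (0.50, adjusted p = 0.00182). The C1S call was lost without outer stretched replicate 4 or 6 or outer stretched IL-1 replicate 4 (adjusted p from 0.0969 to 0.111), and CFI was called without the last of these (0.30, adjusted p = 0.0331). With each zone fitted alone, the C1S call was lost as well (0.40, adjusted p = 0.0575). With upper-quartile scaling 3 genes, C3, CFB and C2, were called in this comparison.

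**Figure D3:**
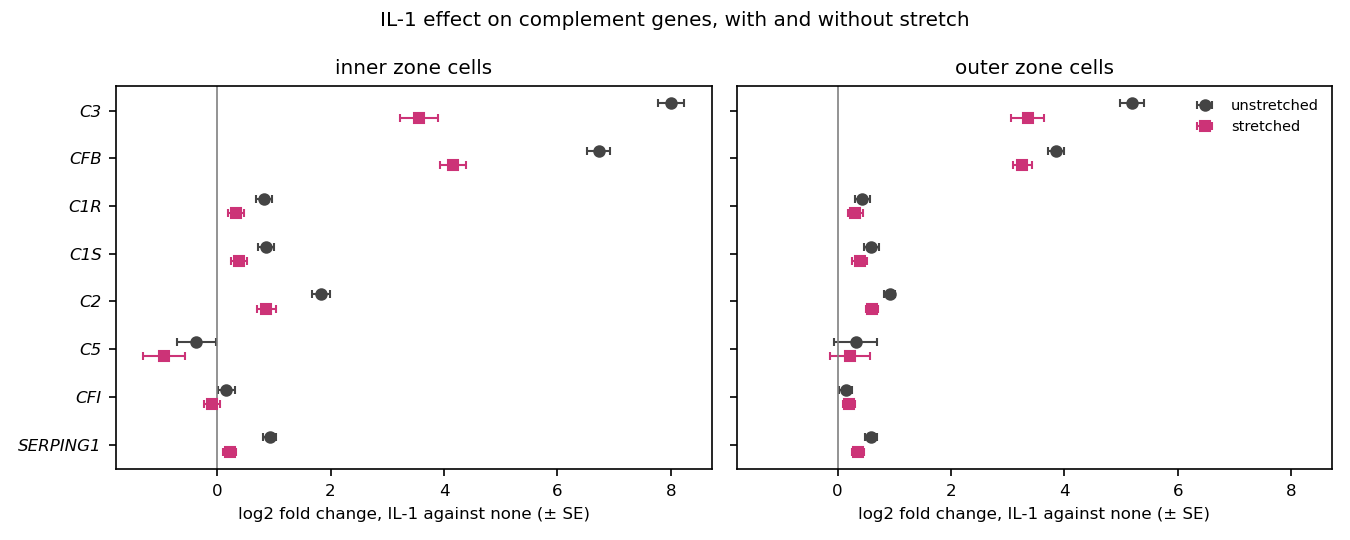
Log2 fold change of each complement gene with IL-1 in unstretched (grey circles) and stretched (pink squares) cells of the inner (left) and outer (right) zone, with bars of 1 SE from the edgeR fit. In the inner zone C3 goes from 8.01 unstretched to 3.55 stretched and CFB from 6.73 to 4.16, while C5 and CFI lie near 0 except C5 in stretched inner cells, at -0.93.

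As a share of the CPM gained with IL-1 at rest, among the 6 genes raised at rest, the gain with stretch was smallest for C3, at 7.43% in the inner and 20.6% in the outer zone, from group means and with no test. For SERPING1 it was 18.0% and 51.7%, for CFB 24.01% and 39.3%, for C2 32.1% and 54.6%, for C1R 32.3% and 60.3% and for C1S 34.0% and 50.6%. For each of the 6 genes the share was larger in the outer zone, which was not counted over all genes. The test of the zone difference in the stretch effect with IL-1, given below, called C3 and CFB. It did not call C2, SERPING1, C1R or C1S.

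The zones, each with its own pool of cells and its own wells, differed before any treatment. In untreated cells 7 of the 8 genes were lower in the inner than in the outer zone, against 24.3% of all genes called lower. C2 differed most, at -2.93 ± 0.14 on the log2 scale (7.59-fold, adjusted p = 7.76e-14), and then CFB at -2.78 ± 0.34 (adjusted p = 3.67e-08). C3 was lower by 1.69 ± 0.59, from 9 reads in all against 29 (adjusted p = 0.019), a call lost without inner unstretched replicate 3 (adjusted p = 0.0773) or outer unstretched replicate 6 (adjusted p = 0.0523). The regulators CFI (-1.37 ± 0.13, adjusted p = 8.54e-11) and SERPING1 (-1.25 ± 0.11, adjusted p = 2.91e-08) and the C1 proteases C1S (-0.78 ± 0.14, adjusted p = 0.000167) and C1R (-0.65 ± 0.14, adjusted p = 0.000832) were lower too. C5 was not called (0.67 ± 0.35, adjusted p = 0.115).

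In stretched cells 6 of the 8 were lower in the inner zone, against 23.7% of all genes, all of those above but C3 (-0.51 ± 0.53). With IL-1 the order of C3 changed: it was 2.19-fold higher in inner than in outer cells (1.13 ± 0.11, adjusted p = 1.34e-10). In all 5 of the 8 genes were called in either direction there, against 46.8% of all genes. CFB then had means of 23.6 ± 5.1 and 21.9 ± 0.6 CPM (SD, n = 3) in the inner and outer zone, a log2 difference of 0.10 ± 0.10 that was not called. C2, CFI, SERPING1 and C1S (4 of the 8) stayed lower in inner cells with IL-1. In stretched IL-1 cells 6 were lower in the inner zone, against 24.4% of all genes, with C3 (-0.31 ± 0.19) and C5 (-0.70 ± 0.39) not called.

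CFI varied with zone more than with any treatment. Over the 12 inner libraries it lay between 1.92 and 2.91 CPM and over the 12 outer ones between 4.84 and 6.80 CPM, with no overlap, and its fold between zones was 1.93 to 2.58 in the 4 treatments (adjusted p from 8.54e-11 to 1.01e-07). C5 lay between 0.210 and 0.819 CPM over all 24 libraries, 6 to 24 reads each, and no comparison between zones was called.

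The response to IL-1 differed between zones for 3 of the 8 genes, against 9.24% of all genes called in either direction. The inner response exceeded the outer one by 2.82 ± 0.59 on the log2 scale for C3 (adjusted p = 0.00127), by 2.88 ± 0.36 for CFB (adjusted p = 7.53e-07) and by 0.91 ± 0.19 for C2 (adjusted p = 0.00248). The differences for C1R (0.39 ± 0.19), SERPING1 (0.34 ± 0.16) and C1S (0.27 ± 0.19) did not pass. The untreated levels of C3, CFB and C2 also differed between the zones, and the order depends on the scale. In CPM, from group means and with no test, C3 gained 25.05 in inner and 11.09 in outer cells. CFB gained 23.34 and 20.4 CPM, and C2 gained less in inner cells, 9.87 against 25.8 CPM. The stretch effect with IL-1 was called as different between zones for 2 of the 8 genes, C3 (-1.44 ± 0.22, adjusted p = 0.000118) and CFB (-0.69 ± 0.16, adjusted p = 0.0147), against 2.33% of all genes. For CFB this was lost without inner stretched IL-1 replicate 3 or outer stretched IL-1 replicate 5 (adjusted p = 0.0573 and 0.0589). C2 was not called (-0.56 ± 0.18, adjusted p = 0.102), but was called by DESeq2 (adjusted p = 0.0294) and without outer stretched replicate 5 or inner unstretched IL-1 replicate 3 (adjusted p = 0.0218 and 0.0238). Outer stretched replicate 5 is outside this comparison, and the difference stayed at -0.56 without it.

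Per kb of exon, the C1 proteases and their inhibitor made up most of the transcript level of the 8 genes, with mean shares from 97.2% in untreated inner cells to 85.1% in outer cells with IL-1. In untreated inner cells C1S had 30.4 ± 0.6 CPM per kb (SD, n = 3), C1R 29.1 ± 0.9 and SERPING1 13.4 ± 0.5, then C2 1.48 ± 0.14, CFI 0.396 ± 0.037, C5 0.108 ± 0.018, CFB 0.0816 ± 0.0174 and C3 0.0179 ± 0.0067 CPM per kb. With IL-1, CFB at 8.94 ± 1.92, C2 at 5.31 ± 1.06 and C3 at 4.79 ± 1.02 CPM per kb came next after SERPING1 at 25.6 ± 4.4, and C2 and C3 were within their spread of each other. In untreated outer cells the order began with C1S at 52.3 ± 4.1 and C1R at 45.6 ± 3.8, then SERPING1 at 31.7 ± 2.4 and C2 at 11.2 ± 0.9 CPM per kb. In outer cells with IL-1, C2 at 21.3 ± 0.4 CPM per kb stayed above CFB at 8.31 ± 0.21 and C3 at 2.17 ± 0.09.

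The ratio of CFB to C2, the paralogous convertase proteases, shows how unequally these neighbours moved. Per kb, it was 0.0548 ± 0.0069 (SD, n = 3) in untreated inner cells, 1.68 ± 0.03 with IL-1 and 0.841 ± 0.082 with IL-1 and stretch. In outer cells it was 0.0512 ± 0.0076, 0.391 and 0.214 in the same order. The lowest and highest libraries of these groups did not overlap within a zone. The ratio of C1S to C1R stayed between group means of 1.01 and 1.28 in all 8 groups, and the 2 genes had a Pearson r of 0.989 over the 24 libraries. In outer cells this ratio was 1.126 to 1.184 untreated, 1.247 to 1.312 with IL-1 and 1.114 to 1.193 with IL-1 and stretch. The outer IL-1 libraries thus lay above both other groups. In inner cells the untreated (1.01 to 1.066) and IL-1 (1.058 to 1.094) libraries overlapped.

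**Figure D4:**
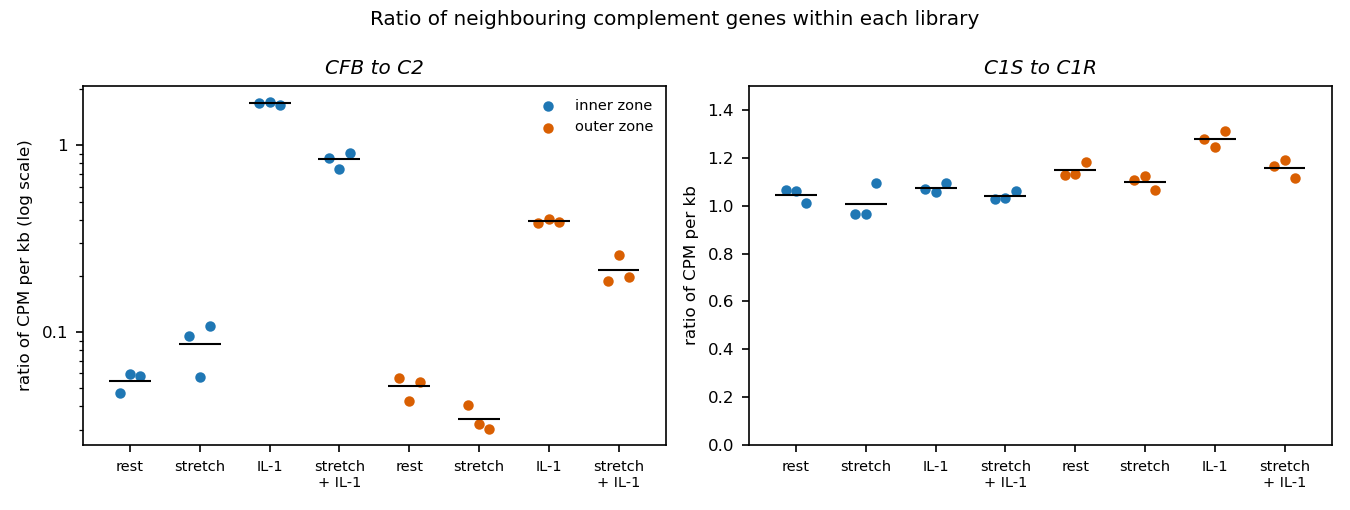
Ratio of CPM per kb within each library for 2 pairs of neighbouring complement genes, CFB to C2 on a log axis (left) and C1S to C1R on a linear axis from 0 (right), by group (rest is untreated, points are libraries, lines are means of 3). CFB to C2 goes from 0.0548 at rest to 1.68 with IL-1 in the inner zone, while group means of C1S to C1R stay between 1.01 and 1.28.

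The genes with the pattern most like each member were taken by Pearson r of log2 CPM over the 24 libraries, among 9670 genes, as a description in which the shared groups set most of the likeness. C3 was most like PDE12 (r = 0.991), SLC25A28 (0.989) and RNF19B (0.988). CFB was most like OSMR (0.989), a receptor subunit for oncostatin M, CCL2 (0.988), a monocyte chemokine, and LDHA (0.987). C2 was most like MMP2 (0.991), a gelatinase, SULF1 (0.988) and SULT1A3 (0.985). Beside C1S, C1R was most like ISG12(A) (0.980) and ANXA11 (0.965), and these 2 also came next for C1S, at 0.972 and 0.976. SERPING1 was most like C2 (0.983), ANG (0.976) and MMP2 (0.973), and CFI was most like CACNA2D1 (0.975), PLCB1 (0.974) and ABI3BP (0.972). No gene exceeded an r of 0.555 with C5.

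The rest of the complement system was described from a list of 49 other components, receptors and regulators, of which 41 were matched and 22 had enough reads to be tested. With IL-1 in unstretched cells 5 of the 22 rose and 3 fell in the inner zone and 3 rose and 3 fell in the outer zone, with medians of -0.07 and 0.00 on the log2 scale. Over all genes, 32.6% rose and 32.8% fell in the inner zone and 31.1% rose and 33.5% fell in the outer zone, so these counts lay below the share over all genes. Several of the 22 had few reads, with at most 11 in any library for COLEC10 and COLEC11, 12 for C6 and 13 for C5AR1. At such depth smaller changes were not detectable, which limits these counts. Stretch with IL-1 raised 2 and lowered 1 in the inner zone, against 16.6% and 18.1% of all genes, and lowered 1 in the outer zone, against 15.1%.

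CFD, the protease that cuts factor B, was the gene of this list that rose over 2-fold with IL-1 in both zones. Its level went from 0.153 ± 0.105 to 0.879 ± 0.065 CPM in inner cells (log2 2.47 ± 0.38, adjusted p = 6.07e-07) and from 0.216 ± 0.103 to 2.25 ± 0.49 CPM in outer cells (3.37 ± 0.29, adjusted p = 2.66e-12; SD of levels, n = 3). Stretch lowered CFD in the presence of IL-1, by 0.93 ± 0.31 on the log2 scale in inner cells (adjusted p = 0.0186) and 0.75 ± 0.21 in outer cells (adjusted p = 0.00567). CFD had 2 to 9 reads per library in untreated inner cells and 5 to 10 in untreated outer cells, which limits its folds. In inner cells it had 22 to 25 reads with IL-1 and 11 to 14 with IL-1 and stretch.

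The 4 listed genes at 50 CPM or more in any group moved little. MASP1, a gene for proteases of the lectin route, fell with IL-1, from 133 to 119 CPM in the inner zone and in the outer zone from 185 to 157 CPM (log2 -0.16 ± 0.05 and -0.24 ± 0.05, adjusted p = 0.00393 and 4.34e-05). CLU, which encodes clusterin, an inhibitor of the terminal complex, had 665 CPM untreated and 757 CPM with IL-1 in inner cells (0.19 ± 0.05, adjusted p = 0.00116) and 617 and 639 CPM in outer cells (0.05 ± 0.05, adjusted p = 0.355). C1QBP, whose protein binds C1q and also lies in mitochondria, rose by 0.37 ± 0.05 and 0.28 ± 0.05 (adjusted p = 1.29e-08 and 1.71e-06). COLEC12, a collectin of the cell surface, had group means from 35.6 to 60.9 CPM and did not pass (-0.06 ± 0.09 and 0.08 ± 0.08).

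Many partners of the 8 genes were near 0 reads, with exceptions such as C5AR2 (the genes of this paragraph were chosen for mention after their values were seen). The 3 chains of C1q, which holds C1r and C1s in the C1 complex, had at most 2 reads in any library. Among the genes of the membrane attack complex, C8A and C8G were at 0 reads, C9 had at most 2 and C8B at most 3 in any library, while C6 reached 12 and C7 20. C3AR1, the C3a receptor, had at most 1 read and C5AR1, a C5a receptor, at most 13. C5AR2, the other C5a receptor, had 88 to 210 reads per library, and IL-1 lowered it from 5.35 to 4.37 CPM in inner cells (log2 -0.31 ± 0.14, adjusted p = 0.0469) and from 5.36 to 3.55 CPM in outer cells (-0.60 ± 0.14, adjusted p = 0.000362).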

How the data were processed

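Stranded mRNA libraries of cultured meniscus cells were sequenced. The authors trimmed reads (the labels name Trim Galore and cutadapt), mapped them with STAR to Sscrofa11.1 with Ensembl annotation 91, kept unique alignments and made the deposited counts per gene with HTSeq. A table of normalized counts was not used, since it rescales the same counts.

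Genes with 10 or more reads in any library were fitted with edgeR 4.0.16 (R 4.3.3, limma 3.58.1): TMM factors, 8 group means over 24 libraries, robust quasi-likelihood F-tests, two-sided, Benjamini-Hochberg adjustment over 13653 genes in each of 16 comparisons. A gene rose or fell at an adjusted p under 0.05, at any fold. The fit leaves 16 residual degrees of freedom. For the interaction, the stretch effect of cells without IL-1 was subtracted from that of cells with it, and zone differences are inner minus outer. SEs are the log2 fold change over the square root of F. Log2 CPM used a prior count of 2. Replicates differed beyond counting error (chi-square per degree of freedom 2.37 to 10.9).

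Alternatives were RLE and upper-quartile factors, other filters, DESeq2 1.42.0, each zone alone, a replicate block, leaving out each library and, added after the data were seen, leaving out CFB. All 8 matched members are named whatever their change. Of the other complement genes, those changed over 2-fold with IL-1 in unstretched cells of both zones and those with a mean of 50 CPM or more in any group are named. The members, the lists and the motif letters were chosen with earlier results of these data known. Likeness of pattern was searched among genes with a mean of 5 CPM or more in any group. Promoter windows and exon lengths came from the RefSeq annotation and genome of Sscrofa11.1.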

Additional observations from a re-analysis of the deposited data

Results flagged for a closer look

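Effects that differed between the zones by a test of the difference itself, inner minus outer on the log2 scale, were the IL-1 effect of unstretched cells for CFB (2.88, adjusted p = 7.53e-07), C3 (2.82, adjusted p = 0.00127) and C2 (0.91, adjusted p = 0.00248) and the stretch effect with IL-1 for C3 (-1.44, adjusted p = 0.000118) and CFB (-0.69, adjusted p = 0.0147). All 24 libraries entered the edgeR fit, and the inner C3 values without IL-1 rest on 2 to 7 reads per library.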

How the results depend on the processing

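Over 128 pairs of gene and comparison, 69 were called. The alternative fits gave 816 values, of which 11 lost and 6 gained a call and 0 called values changed sign. Leaving out 1 library at a time gave 3072 values, of which 42 lost and 14 gained a call and 0 called values changed sign. All groups share one estimate of the spread. Leaving out a library outside a comparison could thus change a call while the log2 difference barely moved. The share of all genes called in these fits was not counted. Upper-quartile scaling called 3 genes for IL-1 in stretched outer cells in place of 5. It moved the median of all genes with IL-1 from between -0.04 and -0.01 to between -0.22 and -0.15 on the log2 scale. The share of all calls that were higher went from 47.9% to 50.8% over the 4 IL-1 comparisons to 29.3% to 31%, from 47.7% and 46.5% to 61.9% and 63.2% for stretch with IL-1 in inner and outer cells, and from 44% and 41% to 56.9% and 56.8% for the interactions. Without CFB, matched by identifier, 0 genes were called for stretch alone in outer cells and 1 for the zone difference in the stretch effect with IL-1.

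With 1 library left out, the genes called ranged from 3 to 6 for IL-1 in stretched inner cells, from 0 to 3 for stretch alone in outer cells, from 3 to 6 for stretch with IL-1 in outer cells, from 0 to 1 for the interaction in outer cells and from 1 to 3 for the zone difference in the stretch effect with IL-1. Well numbers did not pair the samples: same-numbered wells had correlations of -0.0817 to 0.0699 in inner and -0.0808 to 0.0672 in outer cells. A replicate block added C1R for IL-1 in stretched outer cells (0.33, adjusted p = 0.0388) and C2 for the zone difference in the stretch effect (-0.55, adjusted p = 0.0208) and changed no other call. The zones share no well number, so comparisons between zones at one treatment were not blocked. Untreated C3 and CFB had 2 to 11 and 5 to 55 reads per library, which limits their folds.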
